A study of Mus musculus with 4 samples.

Results

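Transcripts of 9 myogenic factors were followed in mouse quadriceps: the myogenic regulatory factors Myod1, Myog, Myf5 and Myf6, the satellite cell factor Pax7, the MEF2 factors Mef2a, Mef2c and Mef2d, and the inhibitor Id1. They were picked by gene symbol, and each was found through the 1 probe set whose identifier is the gene's Entrez number. All 9 of 9 were measured, among 15267 named genes and 16492 probe sets tested in all. Quadriceps RNA of 4 mice was hybridised to Affymetrix arrays, each mouse on its own array. Of these mice, 2 carry the genotype label titin mutant (the mdm mutant group) and the other 2 that of titin wild type. Both groups carry the strain name B6C3Fe a/a-Ttnmdm/J, so the label that separates them is the titin genotype. In the titles the mutants bear Ttn+ and the wild type mice Ttn-. The plus was read as the mutation, since the description of each mouse says whether it has one. No label states age, sex, zygosity or whether the mice were littermates.

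Myogenic regulatory factors are basic helix-loop-helix proteins that pair with E-proteins and bind short E-box sequences in front of muscle genes. Pax7 marks satellite cells, the stem cells that lie along muscle fibres. When these cells are activated they make Myf5 and MyoD (from Myod1), and myogenin (from Myog) then accompanies their exit from the cell cycle and their differentiation. Mrf4 (from Myf6) is the regulatory factor that predominates in mature fibres, and myogenin is also raised in fibres that lose their nerve supply. MEF2 proteins work beside these factors on muscle promoters. Id1 has no DNA-binding region and captures E-proteins, which keeps the regulatory factors from binding.

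The 250 bases before the start of Myog are shown first, because Myog had the largest difference of the 9 factors. The windows of Chrna1 and Chrng follow. They encode the alpha subunit and the fetal gamma subunit of the acetylcholine receptor, targets of these factors, and were chosen after their values were seen. Sequences are from RefSeq, build GRCm38.p6, and run 5′ to 3′ on the gene's strand. Myog is at chr1:134289754-134290003 (plus strand), Chrna1 at chr2:73580339-73580588 (minus strand) and Chrng at chr1:87205561-87205810 (plus strand). Capitals mark the E-box letters CANNTG and the letters CTANNNNTA, a loose form of the MEF2 site, each searched on both strands.
Myog: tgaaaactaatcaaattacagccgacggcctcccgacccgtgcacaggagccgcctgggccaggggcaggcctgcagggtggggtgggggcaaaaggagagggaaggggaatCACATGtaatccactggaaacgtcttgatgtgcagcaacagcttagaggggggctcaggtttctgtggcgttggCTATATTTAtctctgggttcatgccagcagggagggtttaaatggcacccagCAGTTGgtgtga
Chrna1: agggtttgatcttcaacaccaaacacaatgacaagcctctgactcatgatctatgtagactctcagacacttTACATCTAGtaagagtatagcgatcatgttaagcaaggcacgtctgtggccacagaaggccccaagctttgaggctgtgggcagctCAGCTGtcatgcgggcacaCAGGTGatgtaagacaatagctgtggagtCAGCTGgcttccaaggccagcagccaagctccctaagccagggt
Chrng: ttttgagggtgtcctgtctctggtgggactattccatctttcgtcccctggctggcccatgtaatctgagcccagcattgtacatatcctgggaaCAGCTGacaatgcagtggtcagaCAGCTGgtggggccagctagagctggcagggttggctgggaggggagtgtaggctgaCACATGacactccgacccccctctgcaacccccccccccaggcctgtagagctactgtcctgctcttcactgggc

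The Myog window held 2 E-boxes, starting 138 and 12 bases before the gene's start, and 1 match to CTANNNNTA, starting 64 bases before it. None of the marked letters overlapped. Of all 32851 promoter windows of this length, 66.2% held CANNTG, 31.8% held at least 2, and 19.0% held CTANNNNTA. Both motifs stood together in 13.0%. The more specific E-box CAGCTG, found in 13.0% of windows, was not in the Myog window but occurred more than once in those of Chrna1 and Chrng, which holds for 1.26% of all windows. Of the 9 factors, 6 had a window in the table. The Myf5 window held no CANNTG but an overlapping pair of CTANNNNTA matches, 1 per strand. These matches describe letters and were not tested as binding sites.

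Values are log2 expression values that the authors made with RMA, a method that corrects background, quantile normalizes and summarises each probe set, with a median of 7.28 on every array. A difference is the mdm mutant mean less the wild type mean on this log2 scale, ± the standard error from limma, and group levels are ± SD, with n = 2 mice per group throughout. A probe set was called when limma's p, adjusted by Benjamini-Hochberg over all probe sets, was under 0.05. Across the array 12.8% of probe sets were called, 6.46% higher and 6.36% lower in mdm mutant muscle, and the median difference was −0.02. Limma's unadjusted p was under 0.05 for 5065 of 16492 probe sets, in either direction. The number of arrays limits the precision, and a permutation test of 2 against 2 mice cannot give a two-sided p under 0.333. The muscle label was borne out by the fibre genes Acta1 (skeletal actin) and Ckm (muscle creatine kinase), which read 14.98 and at least 14.81 on all 4 arrays. The array of wild type 2 stood apart in sex-linked genes: Xist, the X-inactivation transcript, read 9.98 there and 6.17 to 6.23 on the other arrays, and the Y-linked Eif2s3y read 5.88 there and 9.28 to 9.65 on the others. By these genes sex and genotype were not balanced, and results are given also without wild type 2.

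Of the 9 factors, 6 were higher in mdm mutant muscle (Myod1, Myog, Myf5, Pax7, Mef2a and Id1), 1 was lower (Mef2d) and 2 were not called (Myf6 and Mef2c). Without wild type 2 the count was 4 higher and 0 lower, the 4 being Myod1, Myog, Myf5 and Id1. It was 3 higher and 0 lower without mdm mutant 1, without mdm mutant 2 or without wild type 1, and in all 4 cases Mef2d was the 1 factor lower at an unadjusted p under 0.05. Myod1, Myog and Myf5 were called in each of these 4 comparisons, whereas Pax7, Mef2a and Mef2d were called in none of them. With no variance moderation in limma none of the 9 was called, and 5 had an unadjusted p under 0.05. Across the array that fit called 0 of 16492 probe sets higher and 1 lower. Fewer probe sets were also called across the array with any 1 mouse left out. In 8 of the 9 genes mutant and wild type values were fully separated, as in 60.9% of all probe sets.

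**Figure D1:**
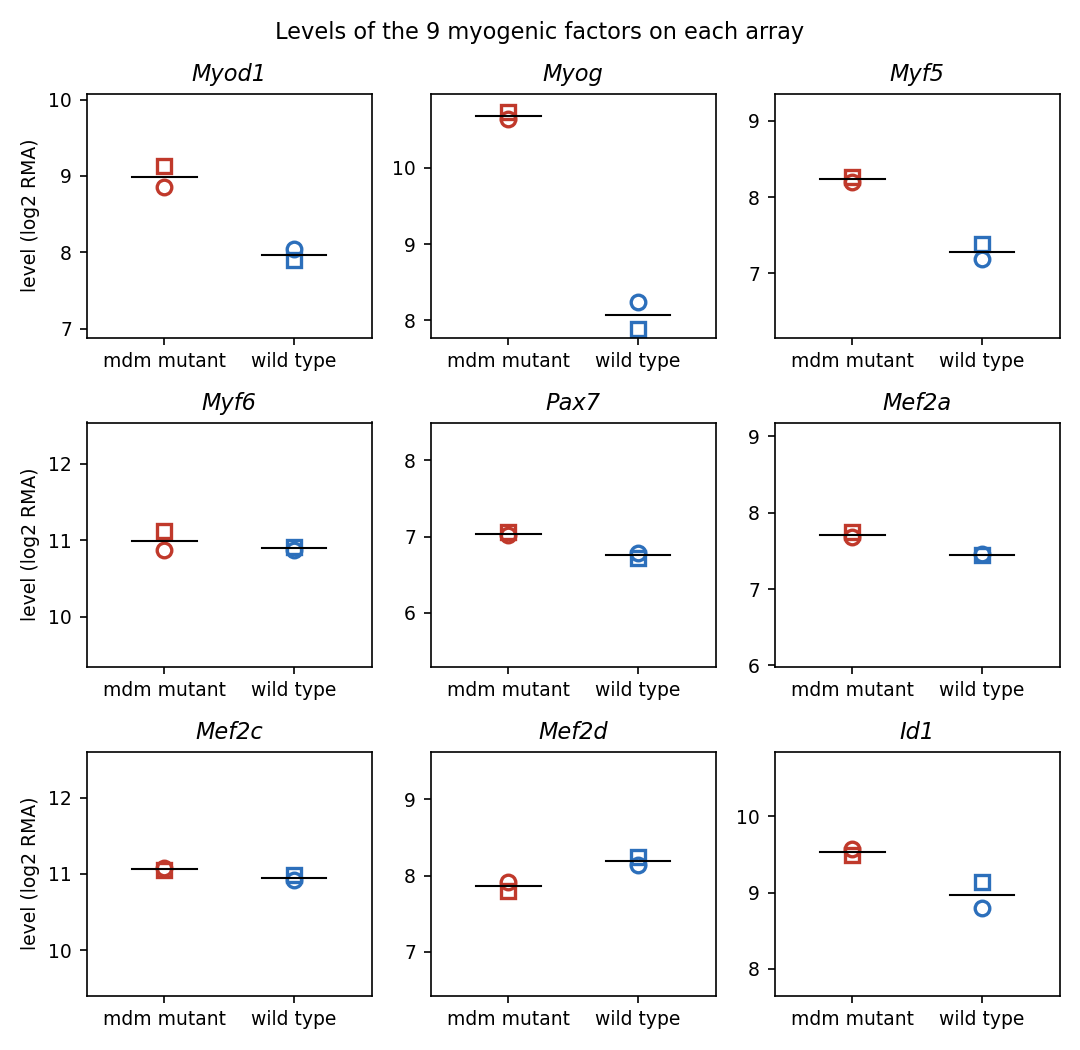
Level of each of the 9 factors (log2 RMA) in mdm mutant (red) and wild type (blue) quadriceps. Circles are mouse 1 and squares mouse 2 of a group, lines are group means, and every panel spans the same range on the log2 axis, so Myog shows the widest separation and Myf6 and Mef2c the narrowest.

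Among the regulatory factors, Myog, the differentiation factor, rose most. It read 10.63 and 10.73 in the mutants, against 8.24 and 7.89 in wild type. The nearest values of the groups were 2.39 apart, while mice of a group differed by 0.09 (mutant) and 0.35 (wild type). The difference was 2.61 ± 0.12 or 6.12-fold (95% interval 2.31 to 2.92, adjusted p = 0.00195 from limma), and only 9 probe sets on the array had a larger rise. In bulk tissue, more cells that make a transcript and more transcript per cell cannot be told apart, and this holds for every gene below.

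Myod1, the determination factor made by activated satellite cells and by fibres, read 8.86 and 9.12 in the mutants, against 8.05 and 7.90 in wild type. Its difference was 1.02 ± 0.11 or 2.03-fold (95% interval 0.76 to 1.29, adjusted p = 0.00928 from limma). Both mutant mice lay above both wild type mice by at least 0.81. Myf5, which is made early in activated satellite cells, read 8.20 and 8.26 against 7.19 and 7.38, again with a clear gap between groups. It rose by 0.95 ± 0.08 or 1.93-fold (95% interval 0.75 to 1.15, adjusted p = 0.00621 from limma). A difference of the size seen for Myod1 or larger, in either direction, was reached by 0.776% of all probe sets, and that of Myf5 by 0.988%.

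Myf6 differed from the other regulatory factors in that its groups overlapped. It read 10.87 and 11.12 in the mutants, against 10.87 and 10.92 in wild type, so mutant 1 matched wild type 1 and mutant 2 alone stood higher. The difference was 0.10 ± 0.09 (95% interval −0.13 to 0.34, adjusted p = 0.516 from limma), and without mdm mutant 2 it was −0.025. Its upper limit lay below the lower limits of the intervals of Myod1, Myog and Myf5. In the RefSeq gene table Myf6 and Myf5 are direct neighbours, with 0 genes between them. The log2 ratio of Myf5 to Myf6, set against its wild type mean, was 0.95 and 0.75 in the mutants, against −0.07 and 0.07 in wild type (exact permutation p = 0.333, two-sided, the smallest possible for n = 2 per group).

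The ratio of Myog to Myod1 was higher in each mutant than in either wild type mouse. Against its wild type mean it was 1.68 and 1.51 in the mutants, against 0.10 and −0.10 in wild type on the log2 scale, a mean change of 1.59 ± 0.12 (SD). Myog thus stood further above its wild type mean than Myod1 did on both mutant arrays. The exact two-sided permutation p was again 0.333.

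Pax7, the satellite cell marker, had a small difference. It read 7.01 and 7.06 in the mutants, against 6.78 and 6.72 in wild type, and was the 1 factor among the dimmer 50% of probe sets. The mice of each group lay closer together than the groups did. Pax7 rose by 0.29 ± 0.05 or 1.22-fold (95% interval 0.15 to 0.42, adjusted p = 0.0322 from limma). A difference of this size or larger was found for 14.8% of all probe sets. Leaving out any 1 mouse ended the call, with adjusted p between 0.0789 and 0.136. The log2 ratio of Myod1 to Pax7 was 0.63 and 0.85 above its wild type mean in the mutant mice, against 0.04 and −0.04 in the wild type mice.

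The MEF2 factors, which share a DNA-binding domain and act with the regulatory factors, moved in different directions. Mef2a read 7.68 and 7.75 in the mutants, against 7.45 in both wild type mice. It rose by 0.26 ± 0.05 or 1.20-fold (95% interval 0.13 to 0.40, adjusted p = 0.0374 from limma), and the call was lost without any 1 mouse, with adjusted p between 0.0717 and 0.148. Mef2d read 7.92 and 7.80 against 8.14 and 8.25, so here both mutant mice were the lower ones. It fell by 0.34 ± 0.07 on the log2 scale, or 1.26-fold (95% interval −0.51 to −0.16, adjusted p = 0.0374 from limma). That call too was lost without any 1 mouse, with adjusted p between 0.0605 and 0.150, and it was lost when arrays were centred on their hybridization controls (−0.23, adjusted p = 0.0609). Mef2c, the MEF2 factor of differentiated fibres and also of endothelial and immune cells, read 11.07 and 11.05 against 10.92 and 10.98. The groups of Mef2c did not overlap, but its difference of 0.11 ± 0.05 (95% interval −0.02 to 0.25, adjusted p = 0.224 from limma) was not called. With the hybridization controls as reference it was called (0.22, adjusted p = 0.0391). The log2 ratio of Mef2a to Mef2d, which does not depend on such scaling, was 0.50 and 0.70 above its wild type mean in the mutant mice, against 0.06 and −0.06 in the wild type mice. Each gene had 1 probe set, so splice forms, by which MEF2 activity is known to be regulated, were not resolved.

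Id1, the inhibitor, read 9.57 and 9.49 in the mutants, against 8.80 and 9.14 in wild type. The mutant mice agreed closely, while the wild type mice differed by 0.34, about as much as the gap between the groups. Id1 rose by 0.56 ± 0.12 or 1.48-fold (95% interval 0.26 to 0.86, adjusted p = 0.0402 from limma). The difference was 0.39 without wild type 1 (adjusted p = 0.0741) and 0.73 without wild type 2 (adjusted p = 0.0317), and it was not called without mdm mutant 1 or mdm mutant 2 (adjusted p = 0.127 and 0.126). The ratio of Myod1 to Id1 had the smallest shift of the 6 ratios computed, with the mutant and wild type mice 0.04 apart at the nearest values: it was 0.29 and 0.63 above its wild type mean in the mutants, against 0.25 and −0.25 in wild type.

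**Figure D2:**
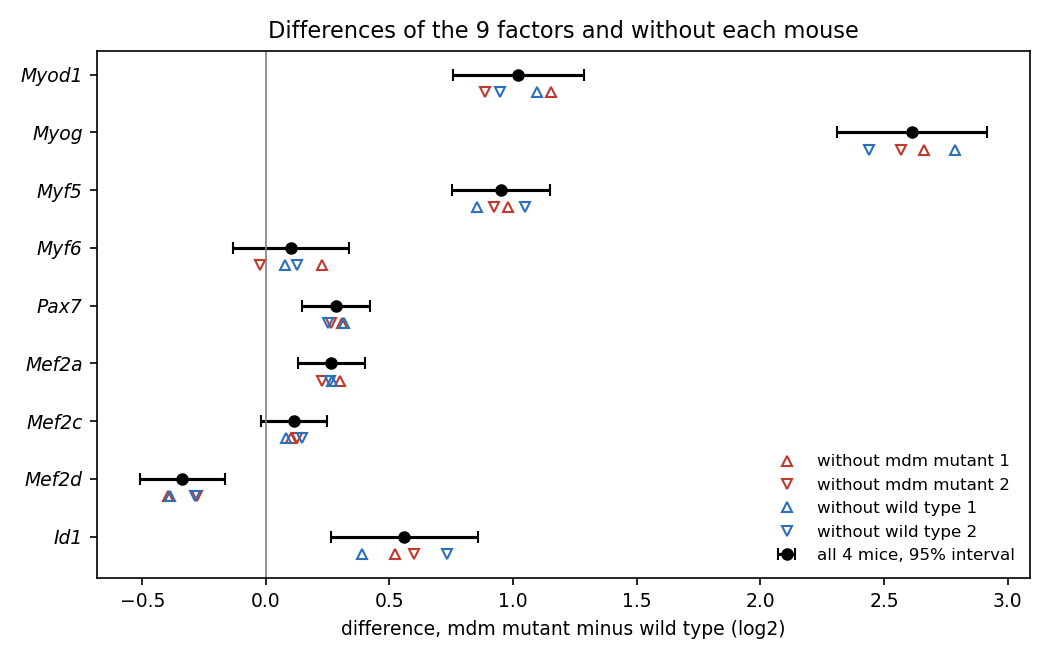
Difference of each factor, mdm mutant minus wild type (log2), with all 4 mice (black, bars are 95% intervals) and without each mouse in turn (triangles). The triangles of Myod1, Myog and Myf5 stay above 0.85, those of Pax7, Mef2a and Mef2d lie within 0.40 of 0, and Myf6 crosses 0 without mdm mutant 2.

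Targets of the myogenic regulatory factors had the largest share of calls among the 6 pathway lists. Of 38 measured targets, 14 rose, 1 fell and 23 were not called, or 39.5% called against 12.8% of all probe sets, and the median difference was 0.58 against −0.02. The number that rose lay between 13 and 15 with any 1 mouse left out. The median was smaller without any 1 mouse, at 0.12 without wild type 1, and 0.36, 0.48 and 0.38 without mdm mutant 1, mdm mutant 2 and wild type 2, an alternative chosen after seeing the data. Wild type 1 read low for 4 targets that mark slow fibres, none of them called. The slow myosin heavy chain Myh7 read 11.62 and 10.40 in the mutants, against 8.45 and 11.93 in wild type. The slow troponin genes Tnni1, Tnnt1 and Tnnc1 were likewise lower in wild type 1 than in wild type 2, by 2.82, 2.97 and 2.46. For all 4 genes both mutants read above wild type 1, while without that mouse the differences were −0.92 for Myh7 and 0.52, −0.24 and −0.37 for the troponins. The 4 with the smallest p were the perinatal and embryonic myosin heavy chains Myh8 and Myh3, the retinoblastoma gene Rb1, which holds differentiating myoblasts out of the cell cycle, and the embryonic myosin light chain Myl4. Rb1 read 10.49 and 10.64 in the mutants, against 8.85 and 8.77 in wild type. It rose by 1.76 ± 0.07 (adjusted p = 0.00132 from limma). Myh3, Myh8 and Myl4 rose by 4.59 ± 0.16, 2.68 ± 0.05 and 3.04 ± 0.13. Cardiac actin, Actc1, was the 1 target to fall, at 14.07 and 13.84 against 14.40 in both wild type mice, a difference of −0.45 ± 0.09 that was not called without mdm mutant 2, wild type 1 or wild type 2.

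Both receptor genes whose promoters are shown above were among the targets that rose. Chrna1 read 9.74 and 9.81 in the mutants, against 8.61 and 8.75 in wild type, a difference of 1.10 ± 0.07 (adjusted p = 0.00338 from limma). Chrng read 7.50 and 7.47 against 6.51 and 6.40, a difference of 1.03 ± 0.06 (adjusted p = 0.00307 from limma). The mutant mice lay about 1 log2 unit above the wild type mice for both genes. Of the 14 targets that rose, 11 had a promoter window and 5 of these held CAGCTG. Of the 23 not called, 17 had a window and 10 of these held it, while the share over all genes with a window was 14.7%. At least 2 copies stood in 1 window for 3 of the 11, Chrna1, Chrng and the cardiac troponin T gene Tnnt2, for 0 of the 17, and for 1.39% of all genes with a window. These counts were not tested.

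**Figure D3:**
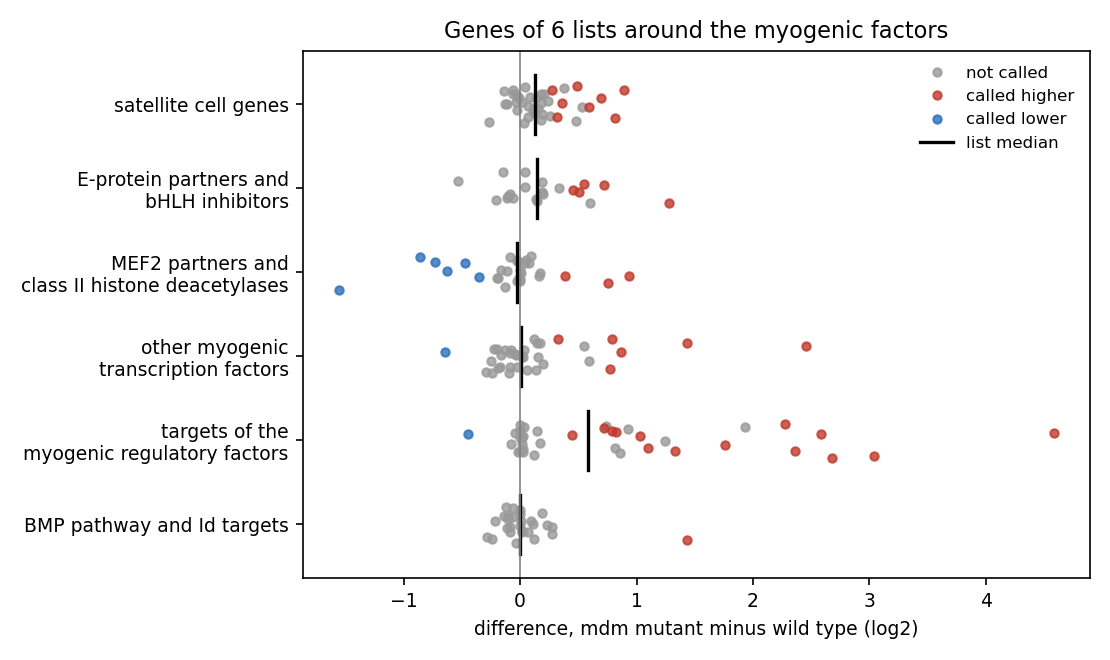
Differences, mdm mutant minus wild type (log2), of the genes in 6 lists around the myogenic factors. Each point is 1 gene, coloured by its call in limma, and the black bar is the list median, which is 0.58 for the targets of the regulatory factors (0.12 without wild type 1) and between −0.02 and 0.15 for the other lists.

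Other satellite cell genes rose in part. Of 40 measured, 8 rose, 0 fell and 32 were not called. The called share was 20.0%, against 12.8% of all probe sets, and the median difference was 0.13. At an unadjusted p under 0.05, 16 of them were higher and 1 lower, beside 5065 of 16492 probe sets in either direction. The cell adhesion molecule Ncam1 read 8.02 and 8.10 in the mutants, against 7.18 and 7.32 in wild type, and rose by 0.81 ± 0.07 (adjusted p = 0.00683 from limma). Integrin alpha 7 (Itga7), the laminin receptor of satellite cells and fibres, rose by 0.59 ± 0.06, the imprinted gene Peg3 by 0.70 ± 0.07 and the tetraspanin Cd82 by 0.89 ± 0.16. Fibres and other cells also make several of these, such as Ncam1 and Itga7. The count that rose was 4 without mdm mutant 1 or wild type 2, and 3 without mdm mutant 2 or wild type 1.

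Among E-protein partners and inhibitors, 5 of 21 rose, 0 fell and 16 were not called. The called share was 23.8%, against 12.8% of all probe sets, and the median difference was 0.15. At an unadjusted p under 0.05, 11 of them were higher and 2 lower, beside 5065 of 16492 probe sets in either direction. The genes that rose were Id2 and Id4, relatives of Id1, together with Hes6, Msc and Zeb2. Id2 read 8.76 and 9.26 in the mutants, against 7.71 and 7.75 in wild type, a larger rise than that of Id1 (1.28 ± 0.16, adjusted p = 0.0130 from limma). Id4 rose by 0.55 ± 0.05. Id3, also a relative of Id1, differed by 0.60 ± 0.14 without a call (adjusted p = 0.0544 from limma). Hes6, a target and cofactor of the regulatory factors, rose by 0.72 ± 0.07 and Msc (musculin), which represses E-box genes in myoblasts, by 0.45 ± 0.06. The repressor Zeb2 rose by 0.51 ± 0.07. The number that rose was 3, 2 and 3 without mdm mutant 2, wild type 1 and wild type 2.

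Partners and regulators of MEF2 went both ways. Of 29 measured, 3 rose, 6 fell and 20 were not called (31.0% called, against 12.8% of all probe sets), with a median of −0.02. The kinase genes Camk2b and Camk2d rose by 0.94 ± 0.08 and 0.76 ± 0.08, while their relatives Camk2a and Camk2g fell by 0.62 ± 0.06 and 0.35 ± 0.08. These calcium-dependent kinases phosphorylate the class II histone deacetylases that hold MEF2 proteins inactive. Of those deacetylases Hdac4 rose (0.39 ± 0.05), while Hdac5 (−0.02 ± 0.08), Hdac7 (−0.11 ± 0.06) and Hdac9 (0.07 ± 0.06) were not called. Map2k6, the kinase that activates p38, read 7.33 and 7.24 in the mutants, against 9.03 and 8.64 in wild type. It fell by 1.55 ± 0.13 (adjusted p = 0.00629 from limma). The p38 gene Mapk14, whose product phosphorylates MEF2 proteins, fell by 0.47 ± 0.06. Smarcd3, a chromatin remodelling subunit that works with MyoD, fell by 0.73 ± 0.05 and the coactivator Ppargc1a by 0.86 ± 0.20. The number that fell was 3 without mdm mutant 2 or wild type 1.

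Of 36 other myogenic transcription factors and growth regulators, 6 rose, 1 fell and 29 were not called. The called share was 19.4%, against 12.8% of all probe sets, and the median difference was 0.01. Follistatin (Fst), which blocks myostatin and activins, read 9.54 and 9.40 in the mutants, against 7.98 and 8.11 in wild type, a rise of 1.43 ± 0.08 (adjusted p = 0.00288 from limma). Igf2, a growth factor of differentiating myoblasts, rose by 0.77 ± 0.05 and Sox4 by 0.79 ± 0.09. Sox6, a repressor of slow fibre genes, fell by 0.64 ± 0.08. The number that rose was 3 without mdm mutant 2 or wild type 1, and without mdm mutant 1 the number that fell was 2. In the BMP pathway, which is known to drive Id1, only Fst of 28 measured genes rose, 0 fell and 27 were not called (3.57% called), with a median of 0.00. Of these genes, 5 were higher and 3 lower at an unadjusted p under 0.05, beside 5065 of 16492 probe sets in either direction across the array. Fst was counted in both lists, as Hes6 was among the targets and the E-protein list. The next smallest p-values belonged to the signal transducer Smad1 (0.27 ± 0.07) and the receptors Acvr1 (0.19 ± 0.05) and Acvr2b (−0.22 ± 0.07).

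Genes outside the 9 with the most similar profile were sought for each called factor, by the Euclidean distance over the 4 arrays after subtracting each gene's mean. For Myog these were Cilp, a matrix protein (distance 0.206), Tnnt2, the cardiac and embryonic troponin T (0.282), and Myh8 (0.295). For Myod1 they were Krt8, Ms4a7 and Cacng1 (0.0708 to 0.0840), and for Myf5 Trim47, Gas1 and Cldn2 (0.0554 to 0.107). Id1 was nearest to Pdgfrl, Il33 and Frem2, Pax7 to Dnajc2, Tnfrsf1a and Cstf3, Mef2a to Zfp318, Rassf7 and Pabpn1, and Mef2d to Pla2g7, C330018D20Rik and Mrpl49. With 4 arrays many genes share such a profile, so this is a description.

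Markers of other cells were read beside these differences. Across the array 12.8% of probe sets were called, and 5065 of 16492 had an unadjusted p under 0.05. Of 19 macrophage markers, 10 rose and 0 fell (52.6% called), and 16 were higher and 0 lower at an unadjusted p under 0.05. Their summed level, on the linear scale, was 12003 and 15303 in the mutants, against 7308 and 6827 in wild type. The defining markers Lyz2 and Ctss rose by 1.14 ± 0.13 and 1.76 ± 0.21. Of 16 endothelial markers, 0 rose and 2 fell, Pecam1 and Robo4 (12.5% called). At an unadjusted p under 0.05, 1 of these markers was higher and 7 were lower. Their summed level was 5509 and 4431 against 6252 and 5861, and the defining markers Egfl7 and Esam differed by −0.25 ± 0.16 and −0.31 ± 0.08 without a call. The median difference of the endothelial list was −0.27, and −0.07 without mdm mutant 2. Without mdm mutant 1, wild type 1 and wild type 2 it was −0.45, −0.25 and −0.30. Id1 is also made by endothelial cells, and their part in its rise was not tested. Mutant 2 had the higher macrophage and the lower endothelial level of the mutant mice. It read higher than mutant 1 for 6 of the 9 factors, by 0.05 for Pax7 to 0.27 for Myod1, and lower for Mef2c, Id1 and Mef2d, by 0.02, 0.07 and 0.12. Of 21 proliferation markers, only Mcm6, a subunit of the replicative helicase, rose (0.98 ± 0.08) and 0 fell (4.76% called). At an unadjusted p under 0.05, 5 of these markers were higher and 2 lower. Their summed level was 3604 and 4225 against 3647 and 3080, so the groups overlapped, and the defining markers Ccnd1 and Mki67 differed by 0.20 ± 0.17 and 0.27 ± 0.25 without a call.

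Muscle fibre markers had summed levels of 184042 and 176929 in the mutants, against 177244 and 181744 in wild type. Of these 12 markers, 1 was called higher (Actn2) and 0 lower (8.33% called). Fibroblast markers read 55059 and 58445 against 49802 and 50499, with 1 of 14 higher (Lum) and 1 lower (Thy1), or 14.3% called. Their median difference was 0.05, with 8 of 14 genes above 0. At an unadjusted p under 0.05, 6 were higher and 2 lower, beside 5065 of 16492 probe sets in either direction. Col3a1, the brightest, weighs most in the sums (13.98 in both mutants, against 13.78 and 13.62 in wild type). The defining fibroblast markers Col3a1 and Col1a2 were not called. Smooth muscle and pericyte markers read 14149 and 14984 against 12522 and 12109, with 1 of 12 higher and 2 lower (25% called). Des, the gene with the highest level in this list, weighs most in these sums (12.83 and 13.05 against 12.50 in both wild type mice). The median difference of the list was −0.10, with 5 of 12 genes above 0. The 1 that rose was Des, which muscle fibres also make, and those that fell were Abcc9 and Cnn1. The defining marker next to Des, Acta2, was not called. None of the markers was listed at 0, and the table holds no detection calls. The part of these cell types in the differences of the 9 factors was not tested.

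**Figure D4:**
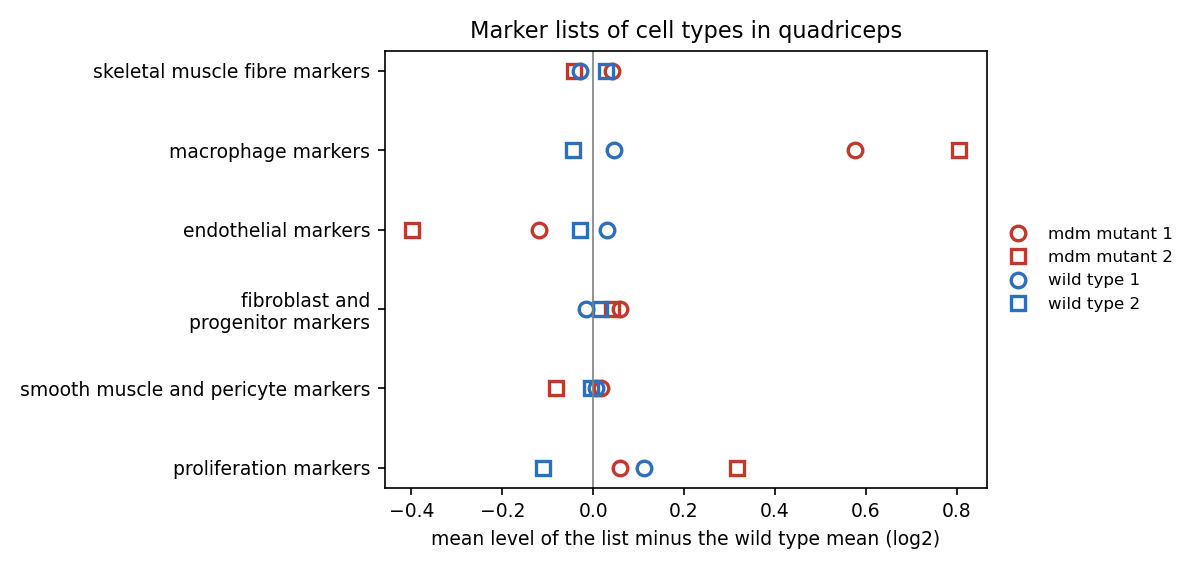
Mean log2 level of 6 marker lists on each array, minus the wild type mean of that list. Macrophage markers stood 0.58 and 0.81 above the wild type mean in the mdm mutant mice and endothelial markers 0.12 and 0.40 below it. Muscle fibre markers lay within 0.05 of it on all 4 arrays. The brightest of them can shift little, since quantile normalization gives every array the same top values.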

How the data were processed

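The authors deposited 1 table of log2 values, and the submitters' processing notes name RMA without a version. No label names the array model or how probe sets were defined. The 4 columns shared 1 distribution, with 26 of 16553 ranks differing by over 1e-06, so a shift common to most genes cannot be seen, and arrays can hold identical values. The 61 array controls were not tested. Symbols came from the platform annotation, updated by Entrez identifier from a RefSeq table of GRCm38.p6. In all 15270 of 16492 probe sets had a symbol. A gene with several probe sets was represented by the one with the highest mean.

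Differences were fitted with limma 3.58.1 in R 4.3.3 (lmFit, eBayes, no covariates) on all 16492 probe sets. Replicate numbers follow deposition order and pair nothing. Each array is a separate mouse, per its label. In simulated data 200 of 16492 genes were changed. There 48.8% of changes of 0.5, 83.4% of changes of 1 and 95.6% of changes of 2 were recovered, with 3.6 false calls per draw. In the real data 2115 probe sets were called, so these rates describe the simulated setting and not the power of this comparison. Alternatives were other variance models, a filter on dim probe sets, other centring, each mouse left out and other thresholds. Genes were named if they were among the 9, ranked in the first 4 by p within a pathway list, 1 of the 3 nearest profiles or 1 of the 2 highest levels among markers, or if a small count covered them. Camk2g, Mapk14, Ppargc1a, Id3, Hdac5, Hdac7, Hdac9, Chrna1, Chrng, Tnnt2, Myh7, Tnni1, Tnnt1 and Tnnc1 were named after their values were seen. The 9 members and all lists were chosen with earlier results of these data known. Plots used matplotlib 3.10.9 (Python 3.11.15).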

Additional observations from a re-analysis of the deposited data

How the results depend on the processing

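The count of 6 factors higher and 1 lower was the same with trend and robust variance estimates, with arrays centred on medians or quantile normalized again, with probe sets of a gene averaged and at an adjusted p under 0.1. With an ordinary linear model per gene, which pools no variance across genes, 0 were called higher and 0 lower. Across the array that model called 0 probe sets higher and 1 lower. At its unadjusted p under 0.05, 5 factors were higher and 0 lower. By limma at an adjusted p under 0.01, 3 were called higher and 0 lower, beside 183 and 121 probe sets across the array. Without the dimmer 50% of probe sets 5 were higher, since Pax7 was not among those tested. Centring on the 18 hybridization controls raised the median of all differences from −0.02 to 0.09, and 7 factors were then higher and 0 lower, with 1 lower at an unadjusted p under 0.05. With 1 mouse left out, between 3 and 4 factors were higher and 0 lower in limma, while 6 to 7 were higher and 1 lower at an unadjusted p under 0.05. In those fits the lone mouse is assumed to vary like the other group. Fewer probe sets were then called across the array in both directions, so the loss of calls was not particular to these factors. The difference of Myf6 ranged from −0.025 to 0.23 with 1 mouse left out, the negative value being that without mdm mutant 2. No other factor changed direction under any alternative run. Over these alternatives the differences of Myod1, Myog and Myf5 ranged from 0.89 to 1.15, 2.44 to 2.79 and 0.85 to 1.06, and the only alternative that ended their calls was the lack of variance moderation (adjusted p = 0.207, 0.182 and 0.191). Among list counts, genes that rose with the hybridization controls as reference numbered 17 of the satellite cell list, 12 of the E-protein and inhibitor list, 12 of the other transcription factors and 6 of the BMP list, in place of 8, 5, 6 and 1. Across the array 2829 probe sets were then higher and 603 lower, in place of 1066 and 1049. No paired analysis was possible because the labels give no replicate numbers that the groups share.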
